A study of Mus musculus with 32 samples.

Results

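G protein-coupled receptors that carry a GPR number or belong to the adhesion family were described in mouse parathyroid gland (PTG) cells, the endocrine cells that release parathyroid hormone when blood calcium falls. The set held every protein-coding gene whose symbol starts with Gpr and a digit or with Adgr, which gave 100 genes (27 adhesion genes and 73 GPR-named genes) of 21743 protein-coding genes and 35458 genes of all types in the tables. The symbols matched 4 further genes, Adgrd2-ps, Gpr137b-ps, Gpr141b and Gpr31a, which are annotated as pseudogenes or a non-coding RNA and were not members.

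The study has 32 bulk RNA-seq libraries in 8 experiments of 4 biological replicates. For each library, 10 to 20 cells with red fluorescence from a tdTomato reporter in the Pth gene were picked by hand, and cDNA was made with the SMART-Seq HT kit, which amplifies full-length messages. Whether replicates of an experiment came from separate animals is not stated, so the spread between libraries of an experiment may be technical. The main tests between arms rest on the spread between experiments. Tests within an arm, and some alternatives, rest on the spread between libraries.

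The arms differed in strain, age and sex label. Control cells came from C57BL/6-Pthtm1(P2A-tdTomato)/+ mice, with experiment 1 from males of 8 weeks and experiment 2 from females of 11 weeks. Mouse-host cells came from Pth-tdTomato mouse embryonic stem cells (ESC) after complementation of Gcm2-/- mice on a BDF1B6 background, aged 9 weeks, with experiments 1 to 3 labelled female and experiment 4 male. Gcm2 is the transcription factor gene that the parathyroid gland needs to form, so the donor cells fill the place of the missing gland. Rat-host cells were derived from Pth-tdTomato mouse ESC in a Gcm2-/- Wistar rat, in 1 experiment on neonates of unknown sex. Graft cells carried the same strain label as the mouse-host cells and came from 1 experiment labelled male at 12 weeks; the labels do not describe the recipient or the site. All cells were picked for the Pth reporter, and age, sex label and host cannot be told apart for the rat host and the graft.

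G protein-coupled receptors cross the membrane with a bundle of helices and pass a signal from outside the cell to G proteins inside it. Orphan receptors are those whose natural ligand is unknown or disputed, and many kept a GPR number as their name. Adhesion receptors have a long extracellular part that binds matrix or neighbouring cells and cuts itself near the membrane, which exposes a tethered activating peptide. Several GPR-numbered genes encode proteins of the Golgi or lysosome with several membrane spans that are not receptors in the usual sense. In parathyroid cells the best known receptor of this superfamily is the calcium-sensing receptor Casr, which is outside the set.

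Levels within a gene are given in CPM, reads scaled to a common library size after TMM adjustment, and levels between genes in TPM, which also divides by transcript length. A gene was counted as expressed in an arm when at least 3 of every 4 libraries had at least 1 CPM. An SD is over 2 experiments in the control arm, over 4 experiments in the mouse-host arm and over 4 libraries in the rat host, the graft or a single experiment. Reads in genes numbered 29346010 to 32119784 in each of the 4 deepest libraries, all from control experiment 1, and 9428502 to 15020793 in the 28 remaining ones, so a floor of 3 reads corresponds to 0.0934 to 0.102 CPM in the former and 0.200 to 0.318 CPM in the latter, for counting error only.

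The parathyroid identity of the libraries was checked on Pth, Chga, Casr and Gcm2, and all 4 had reads in every library. The 12 parathyroid markers together made up 298286 to 352113 CPM in control, 268466 to 359755 CPM in mouse-host and 257809 to 367215 CPM in graft libraries, but only 160193 to 180201 CPM in the 4 rat-host libraries. Markers of proliferating cells summed to 49.1 to 1550 CPM in the rat host (median 675) and 0.155 to 270 CPM in control (median 6.06). They summed to 0 to 633 CPM in the mouse host (median 7.22) and 0.787 to 55.9 CPM in the graft (median 19.3), with ranges that overlap. Fibroblast markers summed to 3335 CPM in replicate 3 of control experiment 2 and to 2428 CPM in replicate 4 of mouse-host experiment 2, against medians of 2.32 CPM in control and 54.2 CPM in graft libraries, where the highest was 412 CPM. Endothelial markers did not exceed 7.81 CPM in any library. In the rat-host arm, carried-over host cells would be rat cells, which counts on mouse transcripts may miss.

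**Figure D1:**
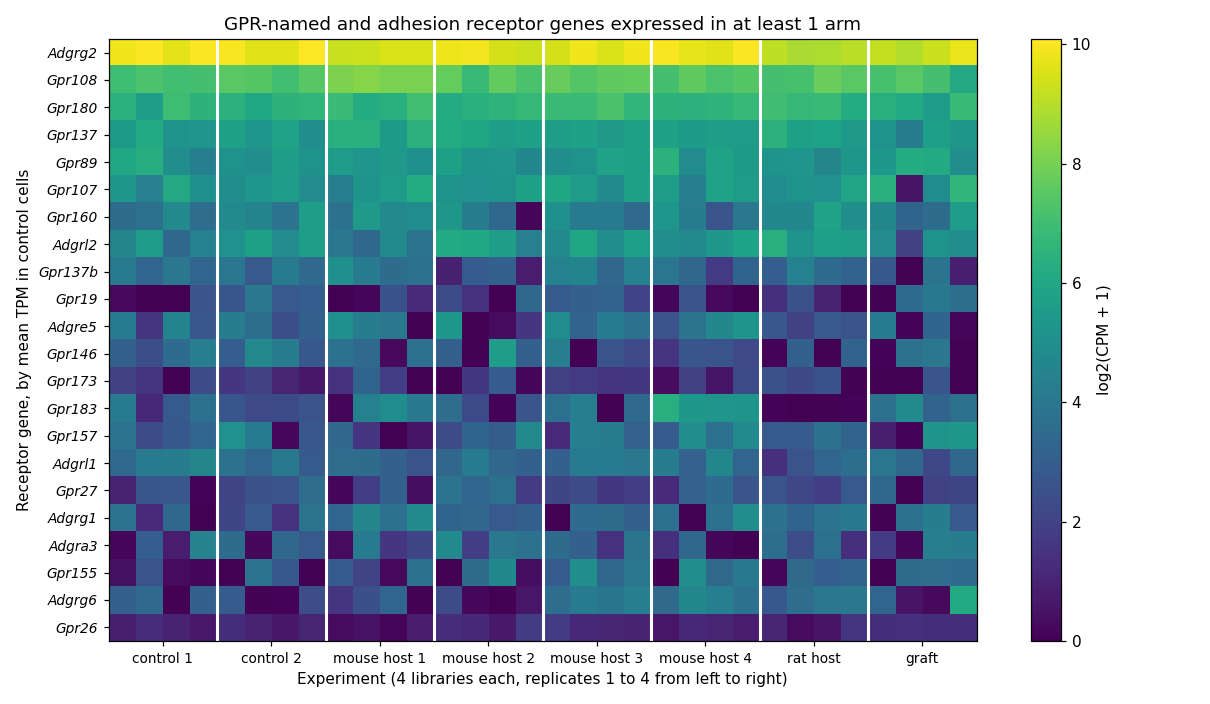
Colour gives log2(CPM + 1) of the 22 members expressed in at least 1 arm (rows, ordered by mean control TPM) in the 32 libraries (columns, 4 per experiment, white lines between experiments). Adgrg2 and Gpr108 fill the top rows in every library, and Gpr183 is dark in all 4 rat-host libraries.

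In native parathyroid cells 17 of the 100 members were expressed, 5 adhesion genes (Adgrg2, Adgrl2, Adgre5, Adgrl1 and Adgrg1) and 12 GPR-named genes (Gpr108, Gpr180, Gpr137, Gpr89, Gpr107, Gpr160, Gpr137b, Gpr146, Gpr173, Gpr183, Gpr157 and Gpr27). That is 17.0% of the members, against 45.8% of all protein-coding genes under the same rule. By family, 7 of 10 genes grouped here as intracellular or atypical, with the ciliary receptor Gpr157 among the 7, were expressed in control cells, 2 of 4 latrophilins, 2 of 7 adhesion G genes, 2 of 3 SREB receptors and 1 of 11 lipid, metabolite and ion sensors. None of the 4 proton-sensing receptors, the 3 constitutively active orphans of the Gpr3 group, the 3 class C orphans or the 5 adhesion F genes was expressed in any arm.

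Adgrg2 was the most abundant member in control cells by length-corrected level. It encodes an adhesion receptor best known from the male reproductive tract, where it supports fluid resorption. Its mean was 214 TPM in control experiment 1 (SD 24.4, n = 4) and 214 TPM in experiment 2 (SD 46.1, n = 4), which placed it at rank 495 of 14691 protein-coding genes with reads. It was the leading member in 29 of the 32 libraries, the other 3 being led by Gpr108, and made up 38.1% to 49.6% of the summed TPM of all members in control libraries.

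The 250 bases before the annotated start of Adgrg2, and of Gpr183, the member nearly absent from rat-host cells, are shown. These genes were chosen because their rat-host libraries lay below every control library. The share of all genes that did so was not counted. The sequences are from RefSeq's table of build GRCm38.p6, which held 18 of the 22 expressed members; the study's files are on another build, and no coordinate of theirs is used. Capitals mark GGGCGG (a GC box, either strand) in Adgrg2 and, in Gpr183, AGATAG read on the opposite strand. That is 1 of the 4 spellings searched for GATA factors on both strands, with AGATAA as the first alternative spelling, TGATAA as the second and TGATAG as the last.
Adgrg2, chrX:160390440-160390689, plus strand: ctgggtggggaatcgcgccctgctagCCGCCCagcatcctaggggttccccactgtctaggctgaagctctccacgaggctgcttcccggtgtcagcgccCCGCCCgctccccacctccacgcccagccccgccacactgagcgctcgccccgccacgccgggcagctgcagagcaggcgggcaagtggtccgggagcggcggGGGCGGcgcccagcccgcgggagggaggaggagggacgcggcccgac
Gpr183, chr14:121965194-121965443, minus strand: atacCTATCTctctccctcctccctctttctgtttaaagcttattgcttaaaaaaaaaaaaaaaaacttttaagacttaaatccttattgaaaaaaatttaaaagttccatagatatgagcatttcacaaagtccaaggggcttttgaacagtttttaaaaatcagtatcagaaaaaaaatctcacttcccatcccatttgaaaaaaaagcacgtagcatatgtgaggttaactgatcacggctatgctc
The Adgrg2 window was 75.6% G and C with 26 CpG dinucleotides and held 3 GGGCGG matches, a motif present in 32.7% of 32851 promoter windows of this length. The Gpr183 window was 32% G and C with 2 CpG dinucleotides, lower than all but 2.38% of windows, and held 1 GATA match, present in 26.5% of windows. ATGCGGGT or ATACGGGT, the letters searched for the GCM family to which Gcm2 belongs, were in neither window and in 0.256% of all windows. These are matches of letters in a window and not binding sites.

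After Adgrg2, the next members by length-corrected level were Gpr108, Gpr180 and Gpr137. Gpr108, a Golgi protein, averaged 63.5 ± 6.39 and 81.7 ± 16.6 TPM in control experiments 1 and 2 (SD, n = 4 each). Gpr180, a membrane protein linked to growth factor signalling, averaged 50.1 ± 18.1 and 49.7 ± 9.42 TPM, and Gpr137, a lysosomal membrane protein, 48.6 ± 15.1 and 47.1 ± 11.5 TPM. Gpr180 and Gpr137 lay within each other's spread.

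A lower tier lay between 3 and 20 TPM. Gpr89, the Golgi pH regulator, averaged 19.4 ± 9.77 and 16.5 ± 4.19 TPM, and Gpr107, the Golgi paralog of Gpr108, 14.4 ± 8.48 and 17.3 ± 3.43 TPM. The orphan receptor Gpr160 averaged 9.36 ± 4.11 and 17.6 ± 10.2 TPM. Gpr89, Gpr107 and Gpr160 did not differ from each other beyond this spread.

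Adgrl2, a latrophilin that binds teneurins and FLRT proteins on other cells, averaged 4.98 ± 2.73 and 7.78 ± 2.27 TPM. Gpr137b, the paralog of Gpr137, averaged 5.69 ± 1.22 and 5.53 ± 1.96 TPM, and Adgre5 (CD97), which binds Cd55, 3.98 ± 3.25 and 3.70 ± 2.28 TPM. Gpr19, an orphan receptor, ranked among them by mean but not by presence: it averaged 1.16 ± 1.70 TPM in experiment 1 and 8.53 ± 4.37 TPM in experiment 2, and it reached 1 CPM in 5 of 8 control libraries. Gpr165 also ranked 12th of the members by mean control TPM, entirely from a single library.

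Gpr165 and Adgrd1 show how a single library can set an arm's mean. Gpr165 had 41.6 CPM in replicate 3 of control experiment 2 and no read in the other 31 libraries. Adgrd1, an adhesion receptor also called GPR133, had 23.1 CPM in the same library and otherwise 1 library below 0.1 CPM. That library carried the highest fibroblast marker sum (3335 CPM) and the highest macrophage marker sum (68.6 CPM) of the 8 control libraries. The part of these markers in the 2 values was not tested, and neither gene was counted as expressed.

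Near the limit of the rule, Gpr173 and Gpr27 reached 1 CPM in 6 of 8 control libraries and were counted, whereas Gpr19, Adgra3 and Adgrg6 did so in 5, Gpr26 in 4 and Gpr155 in 3. Their mean control levels were 1.95 CPM for Gpr173, 4.55 CPM for Gpr27, 7.04 CPM for Adgra3, 4.46 CPM for Adgrg6, 3.09 CPM for Gpr155 and 0.989 CPM for Gpr26. The 5 genes just outside the rule were therefore present in part of the control libraries, with Adgra3 between 0.101 and 21.9 CPM.

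Of the other members, 40 had no read in any of the 32 libraries. They include Adgre1, the macrophage marker F4/80, Adgrl4 and Adgrf5, adhesion genes of endothelium and lung, Gpr65 and Gpr132, proton or lipid sensors of immune cells, Gpr84, Gpr119 and Gpr39. A further 38 members had reads in some library but were expressed in no arm, and 27 of these reached 1 CPM in at least 1 library. Gpr3, which raises cAMP without a ligand, did so in 15 of 32 libraries, Gpr135 in 12, the latrophilin Adgrl3 in 9 and Gpr137c in 8, while 10 members did so in a single library. In libraries of so few cells, a message that is missed in one library and present in the next cannot be told from a message carried by few of the cells, and in bulk samples fewer cells of a type and less RNA per cell cannot be told apart.

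**Figure D2:**
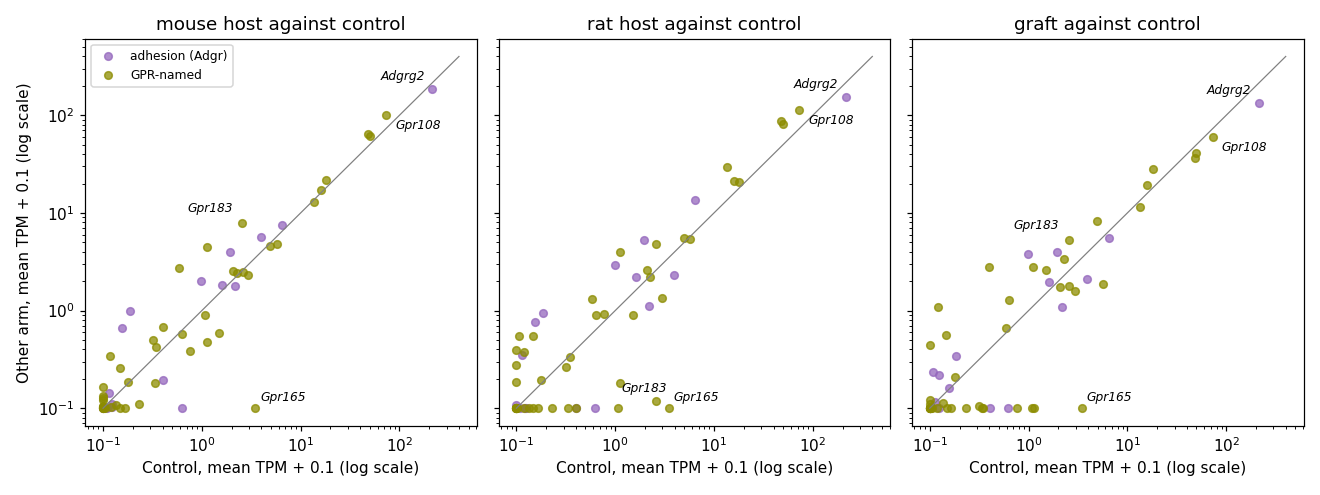
Mean TPM + 0.1 of each member with reads in control cells (horizontal, log scale) against mouse-host, rat-host or graft cells (vertical, log scale), with the line of equal level. Members above 10 TPM in control cells lie near the line in each panel, and Gpr183 lies at the bottom of the rat-host panel and not of the others.

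The same core of members was present in every arm. Adgrg2, Adgrl1, Adgrl2, Gpr108, Gpr137, Gpr180 and Gpr89 reached 1 CPM in all 32 libraries. With Adgrg1, Gpr107, Gpr160 and Gpr27 a total of 11 members were expressed in all 4 arms. Of these, Gpr107, Gpr108, Gpr137, Gpr180 and Gpr89 were grouped here as intracellular or atypical proteins. A single library held 19 to 25 members at 1 CPM or more in control cells (median 23), 18 to 27 in mouse-host cells (median 22), 21 to 25 in rat-host cells (median 22.5) and 18 to 24 in the graft (median 20). These ranges overlapped between all arms.

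Mouse-host cells expressed 19 members and kept 16 of the 17 control members (94.1%, against 94.9% of all control-expressed protein-coding genes). Gpr173, a member of the SREB receptor family, was below the rule, with at least 1 CPM in 11 of 16 libraries. It had a median of 2.09 CPM (0 to 8.63) against 2.00 CPM (0 to 4.01) in control cells, so the medians of the arms were alike although the rule separated them. Adgra3, Adgrg6 and Gpr155 were expressed in mouse-host cells and not in control cells by the rule.

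Rat-host cells expressed 18 members and kept 15 of 17 (88.2%, against 96.1% of protein-coding genes), with Gpr146 and Gpr183 below the rule and Adgra3, Adgrg6 and Gpr155 above it, as in the mouse host. Graft cells expressed 16 members and kept 12 of 17 (70.6%, against 88.7%). Adgre5, Gpr137b, Gpr146, Gpr157 and Gpr173 were below the rule there, and Adgra3, Gpr155, Gpr19 and Gpr26 were above it. The members left out averaged under 20 CPM in control cells. Among control-expressed genes under 20 CPM, the mouse host kept 8 of 9 members and 86.5% of protein-coding genes, the rat host 7 of 9 and 90.4%, and the graft 4 of 9 and 72.2%.

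Mouse-host cells were set against native cells in a test with edgeR on 4 against 2 experiments. No member passed at a Benjamini-Hochberg adjusted p below 0.05, and 0% of the 15698 genes tested did. Of 49 members tested, 3 had an unadjusted p below 0.05, Gpr155, Gpr165 and Adgrd1, which is 6.12% against 4.40% of all genes. DESeq2 called 0.858% of all genes and 1 member, Gpr165, whose reads all came from 1 control library, and limma voom called 0 members and 0.320% of all genes. The median log2 fold change was 0.18 over the 39 members with more than 3 reads in both arms and 0.00 over all such genes.

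Gpr155, which encodes a lysosomal membrane protein that senses cholesterol, had the highest fold change in mouse-host cells of the members at 5 CPM or more in some arm. It had a median of 0.298 CPM (0 to 13.2) in control libraries and 10.0 CPM (0 to 31.3) in mouse-host libraries, with ranges that overlap. Its log2 fold change was 1.81 (SE 0.69, edgeR adjusted p = 0.892). Of its reads, 51.4% were assigned to transcripts annotated as non-coding.

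Gpr183, the oxysterol receptor EBI2 of immune cells, followed at 1.61 (SE 0.88, adjusted p = 0.892). Its mouse-host level differed by experiment: 16.3 ± 12.0, 5.11 ± 4.69, 10.3 ± 8.01 and 48.4 ± 20.6 CPM in experiments 1 to 4 (SD, n = 4). The 4 libraries of experiment 4, the only mouse-host experiment labelled male, had 36.8 to 79.2 CPM, above every other library of the study. Without experiment 4 its log2 fold change against control was 0.71.

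The other named members at 5 CPM or more in some arm had smaller fold changes, apart from Gpr165, which had no read in mouse-host cells. Adgrg6, a receptor for collagen IV that Schwann cells need to myelinate, had 1.08 (SE 1.00), Adgrg1, which binds collagen III, 0.92 (SE 0.51), and Gpr62, read in 3 mouse-host libraries and 1 control library, 0.64 (SE 2.15). Adgrg6 also ran by experiment, with 11.3 to 18.9 CPM in mouse-host experiment 3 and 10.2 to 24.6 CPM in experiment 4, but 0 to 8.72 CPM in experiments 1 and 2. At the lower end were Gpr19 at -0.65 (SE 0.92, but 0.10 by limma-trend on log2(TPM + 1)), Gpr146, a receptor linked to cholesterol metabolism in liver, at -0.45 (SE 0.59), Adgrg2 at -0.21 (SE 0.14) and the latrophilin Adgrl1 at -0.20 (SE 0.40). Members of lower level had larger fold changes with wide errors, such as Adgrl3 at 3.32 (SE 2.74) and Gpr3 at 2.40 (SE 1.82). None of these passed the test.

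**Figure D3:**
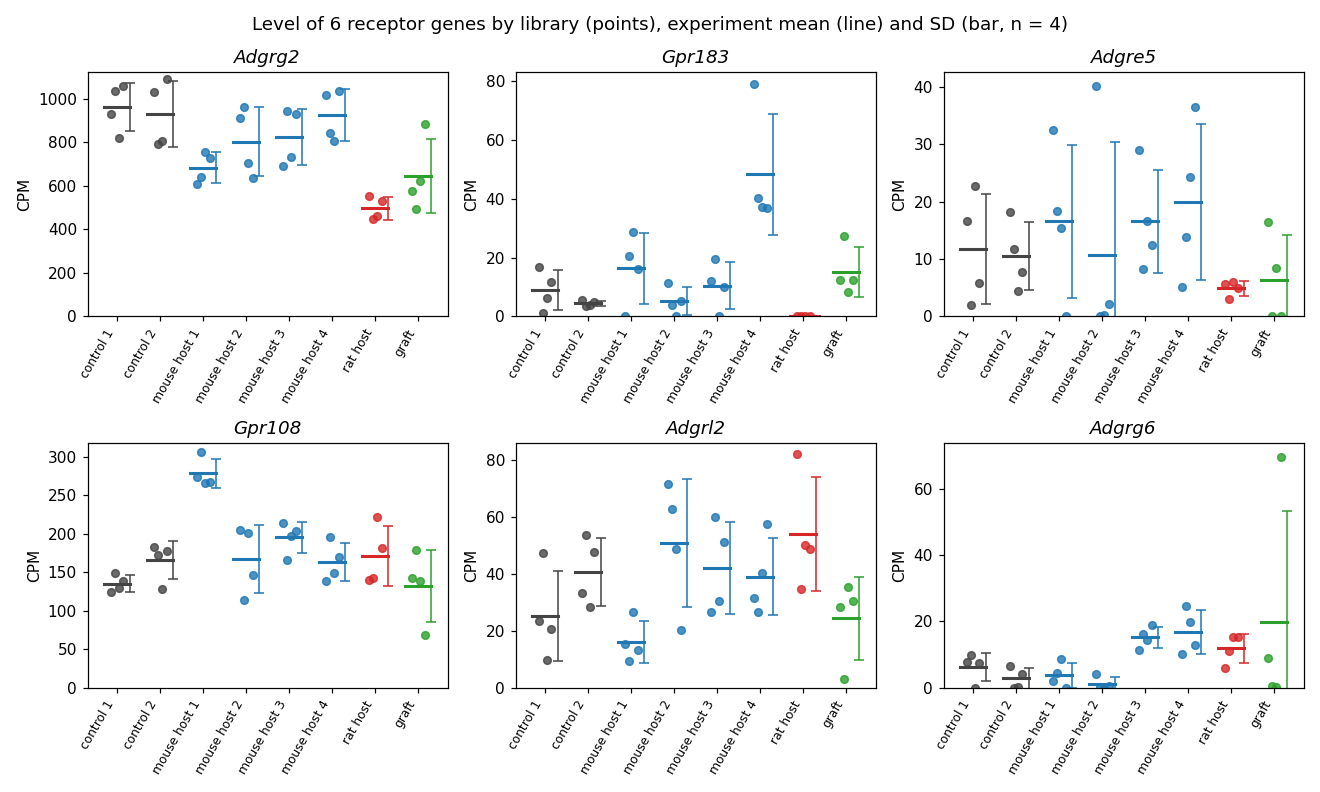
CPM of 6 members in each library (points), with the mean (line) and SD (bar, n = 4, drawn down to 0 only) of each experiment. Adgrg2 is lowest in the rat host, Gpr183 is near 0 there and highest in mouse-host experiment 4, and Gpr108 is highest in mouse-host experiment 1.

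In rat-host cells the main edgeR fit called no member. Adgrg2 and Gpr183 lay below the range of the native libraries. The share of all genes that did so was not counted, so this does not set them apart from other genes. Pth (42194 to 45297 CPM against 78978 to 114814 CPM in control) and Casr also lay below the native range. Against control, 0 of 49 members passed the adjusted threshold, as did 0.261% of all genes, and 3 members (6.12%, against 11.7% of all genes) had an unadjusted p below 0.05: Adgrg2, Gpr183 and Gpr85. DESeq2 called 4 members (Adgrg2, Gpr165, Gpr183 and Gpr85) and 7.30% of all genes. Voom with a random term for experiment (limma) called 2 members (Adgrg2 and Gpr183) and 10.5% of all genes, and limma-trend on log2(TPM + 1) called 0 members and 3.80%. The median fitted log2 fold change was 0.20 over the 34 members with more than 3 reads in both arms, against 0.02 over all such genes. The median log2 ratio of mean CPM, another measure, was -0.05 over the 22 members at 5 CPM or more in some arm, against -0.02 over all such genes.

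Adgrg2 had 552, 445, 459 and 529 CPM in the 4 rat-host libraries. Control libraries ran from 791 to 1091 CPM (median 981) and mouse-host libraries from 608 to 1034 CPM (median 781). On this scale the rat-host libraries lay below every library of both arms, without overlap. The fitted log2 fold change was -0.87 against control (SE 0.20, edgeR adjusted p = 0.143) and -0.66 against mouse host (SE 0.19, adjusted p = 0.199).

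The size of the Adgrg2 difference depended on the scale, and its direction did not. Over 10885 genes at 5 CPM or more in some arm, the median log2 ratio of rat host to control was -0.02 on TMM-scaled CPM, 0.23 on CPM scaled to library size alone and 0.35 on TPM. Adgrg2 stood at -0.93, -0.67 and -0.49 on these scales, or -0.91, -0.90 and -0.84 relative to the median gene. Beside this result, the parathyroid marker sum was also lower in the rat host (160193 to 180201 CPM) than in every control library, and the part of that difference was not tested. The gap to the control libraries held on all 3 scales, but that to the mouse host did not. On library-size CPM the rat host reached 639 and the mouse host started at 591, and on TPM the rat host ran from 138 to 169 TPM and the mouse host from 126 to 241 TPM. On TPM the graft was the lowest arm, with a mean of 132 TPM against 152 ± 16.4 TPM in the rat host (SD, n = 4).

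Gpr183 was almost missing from rat-host cells. The 4 libraries together had 2 reads, against 1270 reads in control and 3650 in mouse-host cells. It was present in all 8 control libraries at 1.16 to 16.7 CPM (median 5.22) and in all 4 graft libraries at 8.33 to 27.4 CPM. The ratio of pooled CPM was 212 for control over rat host (95% counting interval 58.5 to 1751) and 550 for mouse host over rat host (152 to 4547), intervals that cover counting error only. The edgeR adjusted p was 0.165 against control and 0.106 against mouse host. Over all alternatives the adjusted p ran from 7.03e-05 (DESeq2) to 0.406 against control and from 5.96e-08 (DESeq2) to 0.172 against mouse host.

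Gpr183 is known from immune cells, so markers of myeloid cells and T cells were read beside it. Host cells carried over in the rat-host arm would be rat cells, and reads were assigned to mouse transcripts. The rat-host sums may therefore miss such cells and are not comparable with those of the other arms. A sum of 0 there does not show that such cells were absent. All 9 macrophage markers had no read in the rat host, and the control median of their sum was 0.0418 CPM with a highest value of 68.6 CPM. The neutrophil marker sum lay between 10.2 and 42.5 CPM in control libraries and between 0.0707 and 12.3 CPM in those of the rat host. Of its 5 genes, Ly6g, S100a8 and S100a9 had no read in either arm, so the sum came from Csf3r and Mpo alone. The T cell marker sum went the other way, with a median of 4.89 CPM (0 to 15.9) in control and 14.3 CPM (9.96 to 37.7) in the rat host. Of that list, Cd2, Cd3d, Cd3e, Cd3g and Cd4 had no read in either arm. The part of these markers in the Gpr183 levels was not tested.

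The other named members in the rat host did not pass the test and overlapped the control libraries. Gpr146 had 0.0728, 7.85, 0 and 8.18 CPM against 4.33 to 25.8 CPM in control (median 9.10), a log2 fold change of -1.54 (SE 0.92). Gpr19 had -1.41 (SE 1.43), and 0.52 by limma-trend on log2(TPM + 1). Gpr62 had no read in the rat host and reads in 1 control library only. At the upper end were Adgrg6 at 1.49 (SE 1.30), Adgrg1 at 1.09 (SE 0.66), Gpr155 at 1.04 (SE 0.87), and Adgrl2 and Gpr160 at 0.74 each (SE 0.60 and 0.46).

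Adgrg1 and Adgrg6 were above 5 CPM in every rat-host library. Adgrg1 had 12.9, 8.56, 13.4 and 16 CPM there, against 0 to 14.0 CPM in control libraries. Adgrg6 had 5.82, 11.1, 15.2 and 15.3 CPM, against 0 to 9.79 CPM. Gpr155 had 0.146, 10.3, 7.03 and 8.18 CPM, and Adgra3, a receptor of the family that includes the WNT7 co-receptor Adgra2, 11.4, 4.24, 11.9 and 1.55 CPM against 0.101 to 21.9 CPM in control. The libraries of each gene overlapped those of control.

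Compared with the mouse host, in which donor cells also came from ESC, 0 of 49 members passed in the rat host, against 0.643% of all genes. At an unadjusted p below 0.05 there were 5 members (10.2%, against 11.6%): Gpr183, Adgrg2, Adgre5, Gpr85 and Gpr75. DESeq2 called 4 of them, Adgre5, Adgrg2, Gpr183 and Gpr85 (and 7.13% of all genes), and voom called 2, Adgrg2 and Gpr183 (and 7.94% of all genes). This contrast and that against control share the rat-host libraries, and the 3 contrasts against control share the 8 control libraries, so none of them is independent of the others.

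Adgre5 (CD97) had 5.61, 2.97, 6.01 and 4.93 CPM in the rat host. Its mouse-host libraries ranged from 0 to 40.2 CPM (median 14.6) and its control libraries from 1.98 to 22.7 CPM (median 9.69). The log2 fold change was -1.64 against mouse host (SE 0.54, edgeR adjusted p = 0.283), with ranges that overlap. Adgrl1 had -0.77 (SE 0.55) and Gpr146 -1.09 (SE 0.84), and at the upper end Gpr160 had 0.77 (SE 0.41), Adgrl2 0.56 (SE 0.54), Adgrg6 0.41 (SE 1.20), Adgrg1 0.17 (SE 0.62) and Gpr137 0.11 (SE 0.29).

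**Figure D4:**
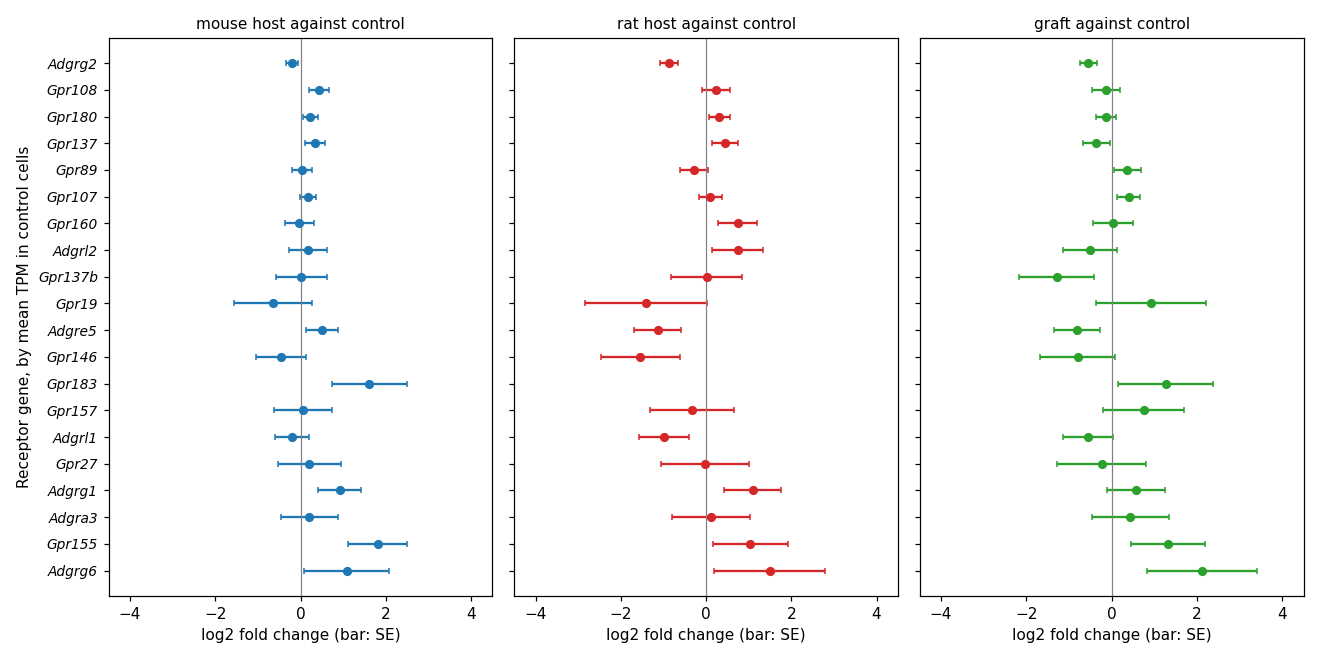
Fitted log2 fold change on TMM-scaled counts (points) with its SE (bars) for 20 expressed members that averaged at least 5 CPM in some arm, in each arm against control; contrasts with 3 or fewer reads in an arm are left out. Adgrg2 at -0.87 in the rat host stands furthest from 0 relative to its SE, and no member passed the adjusted threshold in any panel.

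Graft cells had the shortest list of expressed members but again no called member. Against control, 0 of 49 passed (0.0382% of all genes did), and 5 members (10.2%, against 8.84%) had an unadjusted p below 0.05: Adgrg2, Gpr85, Gpr137c, Gpr35 and Gpr171. Against mouse host, 0 passed (0.115% of all genes did) and 4 members (8.16%, against 12.4%) had an unadjusted p below 0.05: Gpr137c, Gpr85, Adgre5 and Adgrb3. DESeq2 called Gpr165 and Gpr85 against control and Gpr137c and Gpr85 against mouse host, all genes without a read in the graft, and voom called Adgrg2 against control. Of all genes, DESeq2 called 5.85% and 8.41% in these comparisons, and voom 1.12% against control and, with 0 members, 2.41% against mouse host. The median fitted log2 fold change against control was 0.57 over 32 members with more than 3 reads in both arms, against 0.01 over all such genes. The median log2 ratio of mean CPM, another measure, was -0.05 over the 22 members at 5 CPM or more in some arm, against -0.04 over all such genes.

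Adgrg2 had 577, 493, 622 and 886 CPM in the graft. The 3 lower libraries lay under every control library and the highest lay within the control range. The log2 fold change was -0.55 against control (SE 0.20, edgeR adjusted p = 0.467) and -0.34 against mouse host (adjusted p = 0.497).

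Several lower members were present in some graft libraries and near 0 in others. Gpr157, a receptor placed on primary cilia, had 0.795, 0.0720, 35.9 and 40.5 CPM. Gpr137b had 5.88, 0, 13.9 and 0.787 CPM, Adgre5 16.5, 0.0720, 8.43 and 0.0874 CPM, and Gpr146 0.0795, 12.8, 15.2 and 0 CPM. Each of these genes had graft libraries below 1 CPM beside others well above it, and both high Gpr157 libraries exceeded every control library (0.164 to 33.7 CPM). None of their graft fold changes against control passed the test: 0.75 (SE 0.95) for Gpr157, -1.29 (SE 0.88) for Gpr137b, -0.82 (SE 0.54) for Adgre5 and -0.80 (SE 0.88) for Gpr146. Fibroblast markers summed to 412, 0.504, 22.9 and 85.5 CPM in the same 4 libraries, and macrophage markers to 29.4, 5.91, 0.0916 and 0.0874 CPM; their part in the graft values was not tested.

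Adgrg6, which the graft did not express by the rule, was high in a single library. It had 8.91, 0.432, 0.183 and 69.7 CPM, so that its log2 fold change of 2.12 (SE 1.30) rested on replicate 4, and it was -0.43 without that library. Of the 4 members on the graft's list and not on that of control cells, 3 were uneven between libraries. Gpr19 had 0, 10.7, 15.8 and 11.6 CPM (log2 fold change 0.92, SE 1.29), Gpr155 0, 10.8, 11.3 and 10.6 CPM (1.32, SE 0.87), and Adgra3 2.39, 0.144, 18.8 and 18.3 CPM. Gpr26, a brain orphan receptor and the other of the 4, was low and even at 1.47 to 1.59 CPM, against 0.573 to 1.49 CPM in control. Gpr183, at 12.3, 27.4, 8.33 and 12.4 CPM, had 1.27 (SE 1.11) against control, and Gpr62 had 3.14 (SE 2.87). Gpr173 was at 0 in 3 graft libraries and at 5.40 CPM in the other.

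Against mouse host the lowest graft values were Adgre5 at -1.33 (SE 0.53, edgeR adjusted p = 0.365), Gpr137b at -1.31 (SE 0.83), Gpr137 at -0.70 (SE 0.31), Adgrl2 at -0.68 (SE 0.59) and Gpr108 at -0.57 (SE 0.32). Gpr137 had 34.8, 18.5, 50.8 and 40.1 CPM in the graft and 41.6 to 89.5 CPM in mouse-host libraries, with ranges that overlap. The highest were Gpr62 at 2.50 (SE 2.37), Gpr19 at 1.58 (SE 1.11), Adgrg6 at 1.03 (SE 1.15), Gpr157 at 0.69 (SE 0.85) and Gpr89 at 0.33 (SE 0.29). The signs of Adgrg6 and Gpr157 turned without graft replicate 4 (-1.51 and -0.03) and by voom (-0.20 and -0.87). Gpr62 had reads in 2 of 4 graft libraries, at 10.3 and 12.4 CPM.

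Differences between experiments of the same arm were tested as well. An edgeR test among the 4 mouse-host experiments, on single libraries, called 0 members, against 1.35% of 12195 genes, with 4 members at an unadjusted p below 0.05 (Gpr108, Adgrl2, Adgrl3 and Adgrg6), as were 12.4% of all genes. DESeq2 called Gpr108 and Adgrl2 and 6.32% of all genes. Between the 2 control experiments edgeR and DESeq2 each called 0 members, against 0.0173% of 11544 genes by edgeR and 1.30% of 13256 genes by DESeq2. By edgeR 0 members had an unadjusted p below 0.05, against 5.39% of all genes. The control experiments also differ in depth, sex label and age.

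Gpr108 had 274, 306, 266 and 268 CPM in mouse-host experiment 1. The other 28 libraries, of all arms, had 67.9 to 222 CPM, so this experiment stood above all of them (edgeR adjusted p = 0.0831 among mouse-host experiments). Adgrl2 ran the other way, with 15.2, 9.32, 26.3 and 13.2 CPM in the same experiment and 20.0 to 71.3 CPM in the other mouse-host libraries (adjusted p = 0.187). The 3 libraries of the study in which Gpr108 exceeded Adgrg2 by TPM were replicates 1 and 2 of this experiment and replicate 3 of the rat host.

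The genes that receptors of this kind signal through or bind to were read from the same fit. By the rule of expression, control cells had 8 of 16 G protein alpha subunits, 5 of 10 receptor kinases and arrestins, 5 of 21 RGS regulators, 9 of 33 ligands and partners of adhesion receptors, 3 of 12 ligands and ligand enzymes of GPR-named receptors, and 3 of 16 other class C receptors. The counts in the mouse host were 8, 4, 5, 10, 3 and 3, in the rat host 9, 5, 6, 11, 4 and 3, and in the graft 9, 4, 5, 10, 4 and 2. In each of the 5 comparisons edgeR called 0 genes of these lists. The highest count at an unadjusted p below 0.05 was 5 of 20 tested partners of adhesion receptors in the rat host against mouse host, where 11.6% of all genes had such a p. By share, some shorter lists stood higher, such as 2 of 5 tested other class C receptors in the mouse host against control, where 4.40% of all genes had such a p. DESeq2 called 12 different genes over all comparisons, in which it called 0.858% to 8.41% of all genes.

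Gnas, the gene of the stimulatory subunit that raises cAMP, had the highest level of the alpha subunit genes, 4110 TPM in control cells. That level sums all transcripts of the gene, and the share that encodes the subunit was not examined. The genes of the inhibitory subunits followed, Gnai2 at 81.8 TPM and Gnai3 at 24.1 TPM. Gnai3 averaged 79.3 CPM in control libraries (54.0 to 143) and 180 CPM in rat-host libraries (160 to 206). Its log2 fold change was 1.24 (SE 0.22), and edgeR did not call it. The arrestin gene Arrb2 was at 4.99 TPM, the kinases Grk4 and Grk2 at 2.79 and 1.31 TPM, and the RGS genes Rgs10, Rgs11 and Rgs19 at 40.5, 6.78 and 6.29 TPM. Rgs10, which speeds the shut-off of inhibitory G proteins, averaged 23.6 CPM in control and 3.26 CPM in rat-host libraries (log2 fold change -2.77, SE 0.57, adjusted p = 0.103).

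Among partners of the adhesion receptors, Prnp (36.7 TPM), Flrt2 (33.2 TPM) and Plxdc2 (23.3 TPM) were the highest in control cells. Flrt3, a latrophilin ligand, was picked here after its values were seen. It averaged 89.2 CPM in control libraries (43.8 to 117) and 370 CPM in rat-host libraries (264 to 506). Its log2 fold change was 2.11 against control (SE 0.38, edgeR adjusted p = 0.0737) and 1.90 against mouse host (SE 0.32, adjusted p = 0.0514). Col4a1, which encodes a chain of the collagen that Adgrg6 binds and was picked in the same way, had 17.2 to 56.0 CPM in control and 103 to 177 CPM in rat-host libraries (log2 fold change 1.98, SE 0.33, adjusted p = 0.0587). Neither passed the edgeR threshold, and both were called by DESeq2 and voom.

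Among ligands of GPR-named receptors, Psap, whose product is a lysosomal protein also proposed to act on Gpr37 and Gpr37l1, was the highest at 191 TPM in control cells, followed by Ccl5 at 89.7 TPM (171 CPM in replicate 4 of control experiment 2 and at most 0.155 CPM in the other control libraries) and Cxcl14 at 25.3 TPM. Psap had 157 to 297 CPM in the graft and 446 to 580 CPM in control libraries (log2 fold change -1.13, SE 0.25), and edgeR did not call it. Ch25h and Cyp7b1 encode successive enzymes in the synthesis of the oxysterol ligand of Gpr183. Ch25h had no read in any library, and Cyp7b1 averaged 16.7 CPM in control cells. Casr itself averaged 660 CPM in control (556 to 804), 601 CPM in mouse-host (268 to 932), 377 CPM in rat-host (326 to 416) and 415 CPM in graft libraries (345 to 506), with a log2 fold change of -0.75 in the rat host (SE 0.28, adjusted p = 0.353).

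Reads of some members are split over transcripts that the estimate cannot separate with certainty. Adgrg2 reads spread over 7 coding transcripts with at least 1% each, the highest, Adgrg2-202, holding 22.6%. The share of Adgrg2-205 was 21.1% to 30.2% in the rat host and 15.3% to 35.1% in the graft, against 11.4% to 17.4% in control and 7.11% to 20.5% in mouse-host libraries; the rat-host range lay above those of control and mouse host. This difference in shares was not tested. Transcripts annotated as non-coding held 75.1% of the Gpr173 reads, 32.7% of the Gpr107 reads and 21.9% of the Gpr137b reads. The pseudogene Gpr137b-ps had 6598 reads over all libraries against 5198 for Gpr137b, so the level of Gpr137b is uncertain.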

How the data were processed

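RNA was measured in 32 libraries of 10 to 20 picked cells. Salmon quantification by the authors and the build GRCm39 are named in the submitters' processing notes; neither a Salmon version nor an annotation is given in the sources used here. Per the file headers, the deposited tables give an estimated count of reads (NumReads), the TPM, the length and the effective length of each transcript.

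Transcripts were named with GENCODE release M21, which describes GRCm38 and supplied gene names and types only. Of 116747 transcripts 115685 matched, and the other 1062 (0.493% of reads) were left out. Estimated counts were summed per gene and rounded, and the deposited TPM values were summed per gene. Of 48 pairs of libraries within an experiment, the closest had a chi-square of 41.0 per degree of freedom, so all were kept.

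Since sex label and age are constant within an experiment, counts were summed to 8 experiments and fitted over all genes with R 4.3.3 and edgeR 4.0.16 (TMM scaling, default expression filter, quasi-likelihood test, 1 coefficient per arm, 4 residual degrees of freedom). The rat host and the graft, with 1 experiment each, were assumed to vary like the other arms. Calls used a Benjamini-Hochberg adjusted p below 0.05 over all genes tested. The edgeR test gives no SE. Each SE shown is the absolute log2 fold change divided by the square root of the F statistic, so it is approximate. Tests within an arm used single libraries. The test was checked on simulated counts. The result of 1 marker list is not reported here. Alternatives used DESeq2 1.42.0 and limma 3.58.1, other scalings and filters, and left out libraries or experiments.

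Members and companion lists were chosen with earlier results of these data known. Named with values were the 12 members highest by control TPM, members expressed in some arms only, the 5 highest and 5 lowest log2 fold changes per contrast among members at 5 CPM or more in some arm, members near the 1 CPM limit, and the 3 genes of highest control TPM in each companion list.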

Additional observations from a re-analysis of the deposited data

Results flagged for a closer look

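In groups of 4 libraries the highest or lowest value can stand apart from the other 3. For normally distributed values chance alone does this in about 1 in 20 groups. The values screened here include zeros and a count of members, so that rate need not hold for them. The 12 highest members and 2 summary values were screened in each of the 8 experiments (112 groups) by the gap to the nearest other library relative to the range (Dixon's test at the 95% level), and 10 values stood apart.

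In control experiment 1, Gpr160 was at 25.6 CPM in replicate 3 (others 11.0 to 12.3) and Gpr19 at 5.38 CPM in replicate 4 (others 0 to 0.203). In control experiment 2, Gpr19 was at 15.2 CPM in replicate 2 (others 5.42 to 7.02) and Gpr165 at 41.6 CPM in replicate 3 (others 0), the library with the highest fibroblast marker sum among controls. In mouse-host experiment 2, Gpr107 was at 53.9 CPM in replicate 4 (others 33.6 to 35.3), the other library with a high fibroblast marker sum. In the same experiment, Adgre5 was at 40.2 CPM in replicate 1 (others 0 to 2.07), and that library held 20 members at 1 CPM or more (others 21 each). Gpr137b was at 9.19 CPM in replicate 3 of mouse-host experiment 3 (others 20.5 to 22.5), and Gpr19 at 5.24 CPM in replicate 2 of experiment 4 (others 0 to 0.189). Gpr89 was at 23.0 CPM in replicate 3 of the rat host (others 36.5 to 39.1), 1 of the 3 libraries in which Gpr108 led the members by TPM.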

How the results depend on the processing

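In the main edgeR fit on experiment sums 0 members were called in each of the 5 contrasts. This held when any single library, any single experiment of an arm with several, or the 2 libraries of high fibroblast marker sum (an alternative chosen after seeing the data) were left out. Other settings of edgeR and other tools called more. Treating single libraries as independent in edgeR gave 2 members (Adgrg2, Gpr183) in the rat host against control and 2 against mouse host (6.78% and 5.91% of all genes). The replicate numbers do not pair the libraries (0 of 28 pairs of experiments had every same-numbered correlation over 0.1, range -0.11 to 0.05); a fit with a replicate block gave the same counts, 2 and 2 (6.79% and 6.24% of all genes). DESeq2 called 1 member in the mouse host, 4 in the rat host and 2 in the graft against control, and 4 and 2 against mouse host; voom called 2, 1 and 2 in the rat host and graft against control and the rat host against mouse host; no low-count filter gave 1 (Gpr183, rat host against mouse host, with 0.873% of all genes). Among mouse-host experiments DESeq2 called 2. For companion genes, whose alternatives were added after seeing the data, the count went from 0 to 8 with single libraries, 9 with the replicate block, 12 with DESeq2, 12 with voom, 5 on TPM, 3 without TMM, 3 without a filter, 2 at 1 CPM in 2 experiments, 3 without mouse-host experiment 1, 1 without experiment 4, 1 without the 2 fibroblast-rich libraries, and 0 to 4 with 1 library left out.

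Counts of expressed members with 1 library left out were 15 to 16 in control, 17 to 19 in mouse host, 16 to 17 in rat host and 10 to 13 in graft, where 3 libraries must then all pass. Asking for every library gave 8 in mouse host and 10 in graft.

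Of the fold changes of named members, 18 turned sign, none of them called. Against mouse host, graft values became -1.51 (Adgrg6) and -0.03 (Gpr157) without graft replicate 4, -0.20 (Adgrg6), -0.87 (Gpr157) and 1.13 (Gpr183) by voom, and 0.56 (Gpr183) without mouse-host experiment 4. Adgrg6 in the graft against control was -0.43 without replicate 4. In the mouse host against control, Adgre5 was -0.62 and Gpr19 0.35 by voom, Gpr19 0.10 on TPM and 1.25 without control experiment 2, Gpr62 -0.34 without that experiment and -0.31 without replicate 2 of mouse-host experiment 1, and Adgrl1 0.16 without control experiment 1. In the rat host, Gpr19 against control was 0.52 on TPM and 0.49 without control experiment 2, and against mouse host Adgrg1 was -0.01 without mouse-host experiment 2 and Gpr137 -0.14 without replicate 1. With 1 library left out at a time, the values concerned ran from -0.43 to 2.58 (Adgrg6, graft against control), -1.51 to 1.49 (Adgrg6, graft against mouse host), -0.03 to 1.15 (Gpr157, graft against mouse host), -0.31 to 8.63 (Gpr62, mouse host against control, where control has no read once replicate 2 of experiment 1 is out, so the upper value is no bound) and -0.14 to 0.24 (Gpr137, rat host against mouse host). The cause was not tested. Adgrg2 kept its sign in every alternative, from -0.99 to -0.49 in the rat host against control. Members of a few CPM rest on few molecules from 10 to 20 cells, which depth does not mend.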
